A study of Rattus with 18 samples.

Results

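The 77 gene probes described here were selected on a higher mean level at day 3 than at day 1 in infarcted rat hearts, by at least 1.5-fold. They were chosen among the 306 probe rows ahead of the control rows whose mean raw count over 18 hearts was at least 30, of which they make up 25.2%. A further 68 rows did not reach that count and were not considered. A level is a row's count divided by the summed counts of the rows ahead of the control rows in the same heart, scaled to CPM (parts of 1e6 gene counts), plus 1, on the log2 scale. Among the same 306 rows, 24 were lower at day 3 by the same size and 205 lay in between. The deposited values are numbered and no table used here pairs the numbers with gene names, so each probe is called by its row number and none is given a function or a cell type.

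The hearts came from Sprague-Dawley rats that had a myocardial infarction of 35 minutes, and RNA of the left ventricular free wall was measured with NanoString probes of an immunology panel. This method counts barcoded probes hybridised to RNA, without amplification. At day 3 there were 5 iECM hearts and 4 control hearts, and at day 1 likewise 5 iECM hearts and 4 control hearts. The matrix infused, iECM, is extracellular matrix in a form that can be given through a vessel, and the study asked how it acts on inflammatory, fibrotic and metabolic pathways. The labels disagree on who received it. Their treatment text names iECM for each of the 18 samples, but 8 samples carry the agent label control. Groups were formed from the agent label, and the sources do not say what was infused into the control hearts. All the hearts carry an infarct, so no group shows uninjured tissue. The labels do not say that each sample is a separate animal. Each is called a heart here, so a p-value reflects how far these samples vary among themselves, which may be technical.

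The first days after an infarct are a period of rapid turnover in the cells of the heart wall. As background, neutrophils enter the injured muscle early, monocytes follow and become macrophages that clear dead cells, and fibroblasts are then activated and lay down matrix. Tissue matrix made soluble is known to gel in injured tissue and to bring in cells. Which of these cells or processes the rows report on cannot be read from numbered rows. In bulk tissue such as this, more cells of a type and more RNA per cell cannot be told apart.

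Summed gene counts ranged from 786620 to 1615554 per heart, averaging 1377946 ± 223434 over the 9 hearts of day 3 and 984065 ± 193148 over the 9 hearts of day 1 (SD). The rows read as positive controls, spiked-in targets of fixed amount, summed to 55074 ± 11802 counts at day 3 and 75474 ± 6469 counts at day 1. Gene counts and control counts thus moved in opposite directions between the days, and a level as used here is a share of the gene counts, not an amount per unit of tissue. The rows read as negative controls averaged 13.4 counts at day 3 and 14.4 counts at day 1. No sample pair among 153 agreed within sampling noise, since the lowest chi-square per degree of freedom was 7.32. One heart stands apart among the day 3 hearts, the first iECM heart of day 3. Several results that rest on it are given with and without it, and the others include it.

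The 77 rows together took a larger part of the gene counts at day 3. In iECM hearts of day 3 the rows held 5.65%, 11.0%, 10.5%, 11.3% and 7.47% of the gene counts. In control hearts of day 3 they held 8.40%, 8.36%, 11.7% and 10.2%. In iECM hearts of day 1 the shares were 3.63%, 3.32%, 3.33%, 4.17% and 4.75%, and in control hearts of day 1 they were 3.13%, 4.46%, 3.36% and 4.08%. Every day 3 heart lay above every day 1 heart, while iECM and control hearts overlapped on both days. The 9 hearts of day 3 averaged 9.40% ± 2.04 (SD) and the 9 hearts of day 1 averaged 3.81% ± 0.577 (SD). Because the rows were chosen by this difference, it is a description and was not tested. None of the 5 most abundant rows is among the 77, and those 5 rows alone held 41.0% ± 2.28 of the gene counts at day 3 and 40.9% ± 1.97 at day 1. With them left out of the total, the share of the 77 rows was 15.8% at day 3 and 6.42% at day 1.

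**Figure D1:**
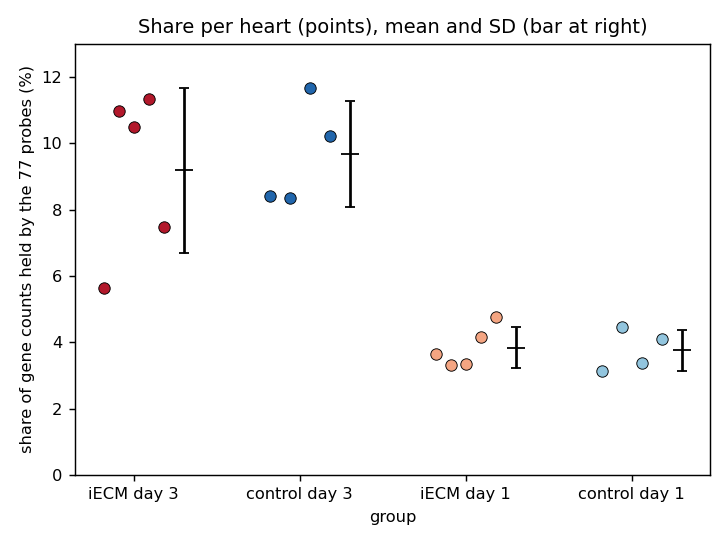
Share of gene counts held by the 77 rising probes (percent, vertical axis) in each heart (points), by group, with the group mean and SD at the right of the points. The day 3 hearts lie between 5.65% and 11.7% and the day 1 hearts between 3.13% and 4.75%, and the first iECM heart of day 3 is the lowest of its day.

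The difference between the days ranged from 0.59 to 3.58 on the log2 scale over the 77 rows, with a median of 1.01, a 2.02-fold higher level. It was 1 or more in 40 rows, 2 or more in 12 and 3 or more in 2. The median over all 306 rows was 0.15, and the members' values stand beside that shift. With each heart scaled on its positive-control rows in place of its gene counts, the median over all 306 rows was 1.11, and over the 77 rows it was 1.97 in iECM hearts and 2.05 in control hearts. The rows nearest the limit of the selection differed little on its 2 sides. Just inside it were row 11 at 0.59, row 8 at 0.60, row 199 at 0.60 and row 293 at 0.61. Just outside were row 344 at 0.58, row 168 at 0.56, row 184 at 0.55 and row 276 at 0.53.

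Row 93 had the largest difference. It stood at 848, 1675, 2122, 2358 and 1403 CPM in iECM hearts of day 3 and at 1107, 922, 1944 and 1758 in control hearts of day 3. It stood at 105, 134, 108, 174 and 150.0 CPM in iECM hearts of day 1 and at 122, 87.6, 94.1 and 167 in control hearts of day 1. The lowest day 3 heart was thus several-fold above the highest day 1 heart, with a mean difference of 3.58 between the days on the log2 scale, or 11.9-fold. Row 147 came next, with a difference of 3.32 or 9.97-fold. Its level was 2777, 7433, 6116, 8348 and 3942 CPM in iECM hearts of day 3, and 6527, 7330.4, 8752 and 7074 in control hearts of day 3. It was 572, 574, 550.1, 649.6 and 947 CPM in iECM hearts of day 1, and 366, 749, 514 and 799 in control hearts of day 1. Here the control hearts of day 3 lay close together, while 3 of the 5 iECM hearts of day 3 lay below all of them.

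Row 279 showed the same separation at a high level. It stood at 2715, 6189, 6309, 6275 and 3973 CPM in iECM hearts of day 3 and 4096, 3343, 6182 and 5899 in control hearts of day 3. It stood at 701, 714, 654, 803 and 729 CPM in iECM hearts of day 1 and 874, 620.2, 619 and 826 in control hearts of day 1. The day 1 hearts were tightly grouped and the day 3 hearts were spread over a wider range, with an overall difference of 2.73 or 6.62-fold. Row 107 was low at day 1. Its day 3 levels were 157, 367, 346, 273 and 168 CPM in iECM hearts and 215, 274, 312 and 347 in control hearts. Its day 1 levels were 36.4, 33.0, 29.5, 29.2 and 34.7 CPM in iECM hearts and 40.5, 38.0, 35.0 and 26.1 in control hearts. The groups of the 2 days did not overlap in this row, and the difference was 2.94, or 7.67-fold.

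Row 244 had day 3 levels of 138, 321, 307, 429 and 169 CPM in iECM hearts and 252, 269.9, 359 and 286 in control hearts. Its day 1 levels were 34.9, 29.1, 43.1, 43.2 and 44.1 CPM in iECM hearts and 54.5, 42.7, 35.0 and 58.9 in control hearts. It too had no overlap between the days, with a difference of 2.64 or 6.24-fold. Row 68 did overlap. It measured 96.5, 337, 493, 246 and 203 CPM in iECM hearts of day 3 and 228, 50.7, 351 and 235 in control hearts of day 3. It measured 22.3, 35.9, 52.6, 21.6 and 62.8 CPM in iECM hearts of day 1 and 11.4, 57.6, 18.1 and 50.5 in control hearts of day 1. The second control heart of day 3 lay below 3 day 1 hearts, and the mean difference was 2.67, or 6.36-fold. In 3 day 1 hearts row 68 was at or below the background limit given further on, so the size of its difference depends on that background too.

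**Figure D2:**
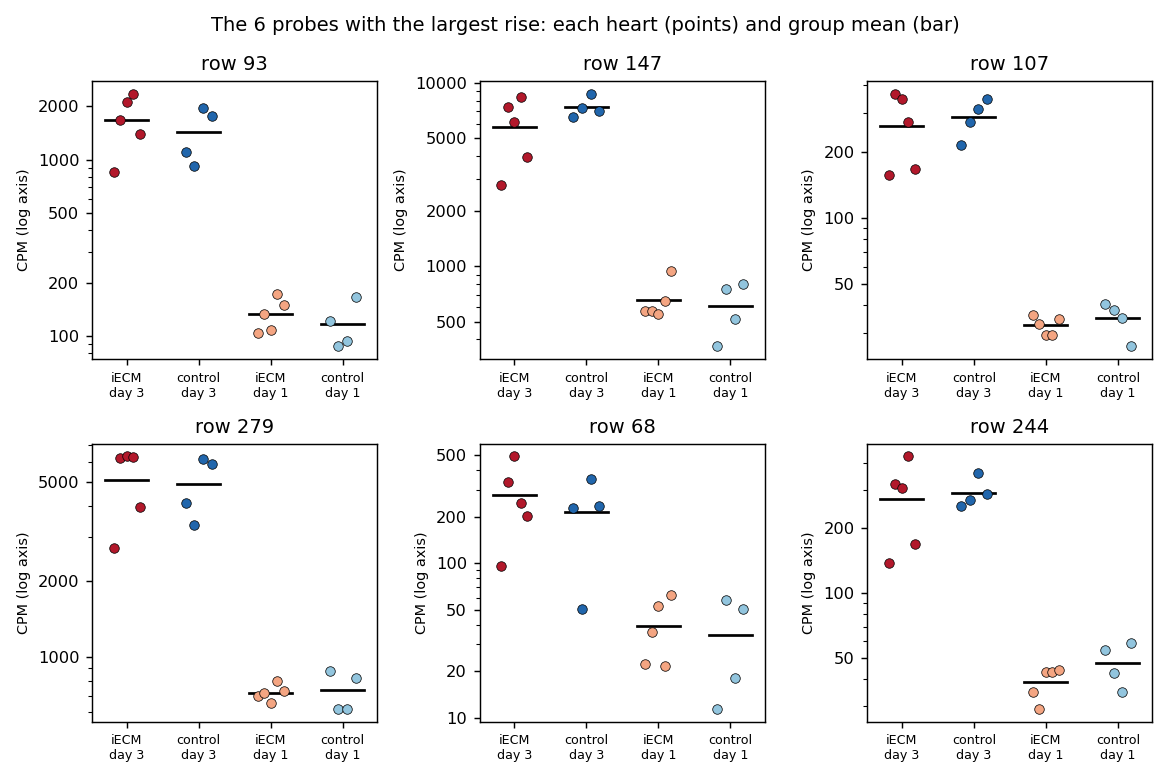
Level in CPM (log axis) of the 6 probes with the largest difference between the days, in each heart (points) and as group mean (bar). In 5 of the 6 panels the points of day 3 and day 1 do not overlap, and in the panel of row 68 a control heart of day 3 at 50.7 CPM lies among the day 1 hearts.

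Counts of different probes are not comparable as gene levels, because probes differ in how well they bind. Abundance is given here as counts and shares of counts, which keep that limit, so rows are ranked by counts and not by gene level. The mean count per heart ran from 31.7 to 11904 over the 77 rows, with a median of 353. The other 229 rows had a median of 631 and reached 167999. Of the 77 rows, 22 averaged 1000 counts or more and 8 averaged less than 100. The 4 rows of highest mean, rows 187, 11, 72 and 147, held 37.5% of the counts of the 77 rows, and the 10 rows of highest mean held 59.6%. Across the 77 rows the difference between the days showed little relation to the mean count (Pearson 0.20, Spearman 0.15, over 77 probes that share the same 18 hearts).

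Of the 4 rows of highest mean, row 147 also had the second largest difference, while rows 187 and 11 had small ones. Row 187 stood at 9417, 12709, 13243, 14721 and 11602 CPM in iECM hearts of day 3 and 10773, 10349.7, 14788 and 13055 in control hearts of day 3. It stood at 6161, 6762, 6136, 9073 and 7587 CPM in iECM hearts of day 1 and 6437, 6615, 5913 and 7225 in control hearts of day 1. The days did not overlap, although the difference was only 0.83, or 1.78-fold. Row 11 was the row nearest the limit. Its level was 4479, 11024, 8807, 11297 and 6220.0 CPM in iECM hearts of day 3 and 8457, 9640.4, 11372 and 9322 in control hearts of day 3. It was 6116, 4544, 5463, 6285 and 7993 CPM in iECM hearts of day 1 and 3483, 7755, 4953 and 6512 in control hearts of day 1. The days overlapped because the first and the fifth iECM heart of day 3 lay within the day 1 range.

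Row 72 joined high counts with a large difference, of 2.51 or 5.68-fold. It stood at 3324, 9489, 8829, 8806 and 5459.8 CPM in iECM hearts of day 3 and 6082, 4285, 10073 and 8532 in control hearts of day 3. It stood at 1229, 759.9, 1016, 1271 and 2493 CPM in iECM hearts of day 1 and 612, 2149, 958 and 1278 in control hearts of day 1. The 77 rows together gained 55940 CPM at day 3. Rows 72, 147, 187, 279 and 84 made up 44.6% of that gain, with 10.5% from row 72 alone, and the 10 largest gains made up 65.4%. The tenth of these gains was that of row 93, at 2.58%, and each further row added less.

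A few rows were near background. The limit taken was the mean of the negative-control rows plus 2 SD, which lay between 22.1 and 34.1 counts over the hearts. At least 1 day 3 heart was at or below it in 2 of the 77 rows, and at least 1 day 1 heart in 12. Rows 160 and 280 were at or below it in all 9 day 1 hearts. Row 160 had 48 counts at the median of the day 3 hearts (23 to 64), against 14 at the median of the day 1 hearts (10 to 28). Row 280 had 86 counts at the median of the day 3 hearts (39 to 134), against 21 at the median of the day 1 hearts (13 to 24). For both rows the day 1 level is background, and the size of the difference depends on it. The same holds in part for other rows named here. Of the 18 hearts, 3 were at or below the limit in row 107, 3 in row 68, 2 in row 244, 4 in row 17, 3 in row 55 and 7 in row 293. Rows 160 and 280 were singled out after their values were seen.

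In 31 of the 77 rows, 40.3%, each of the 9 day 3 hearts lay above each of the 9 day 1 hearts. Over all 306 rows this held for 10.1%, and all the rows in which it held are among the 77. The selection used the same contrast, so nothing is read from the count. The first iECM heart of day 3 was the lowest day 3 heart in 58 of the 77 rows. The count over all 306 rows is not given, so nothing is read from it. In mean log2 level over the other 229 rows this heart was also the lowest of its day, at 9.06. Its median position was 40.3% of the way from the day 1 mean to the day 3 mean, and its share of counts in the 77 rows was 5.65%, the lowest of day 3. Its 5 most abundant rows took 45.7% of its counts, the highest share of the 18 hearts. Without this heart, 52 of the 77 rows had no overlap between the days, and 18% of the 306 rows did. Leaving out any other single heart gave 31 to 37 of the 77 rows. The share of the 306 rows is not given for these leave-outs, and nothing is read from their counts.

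**Figure D3:**
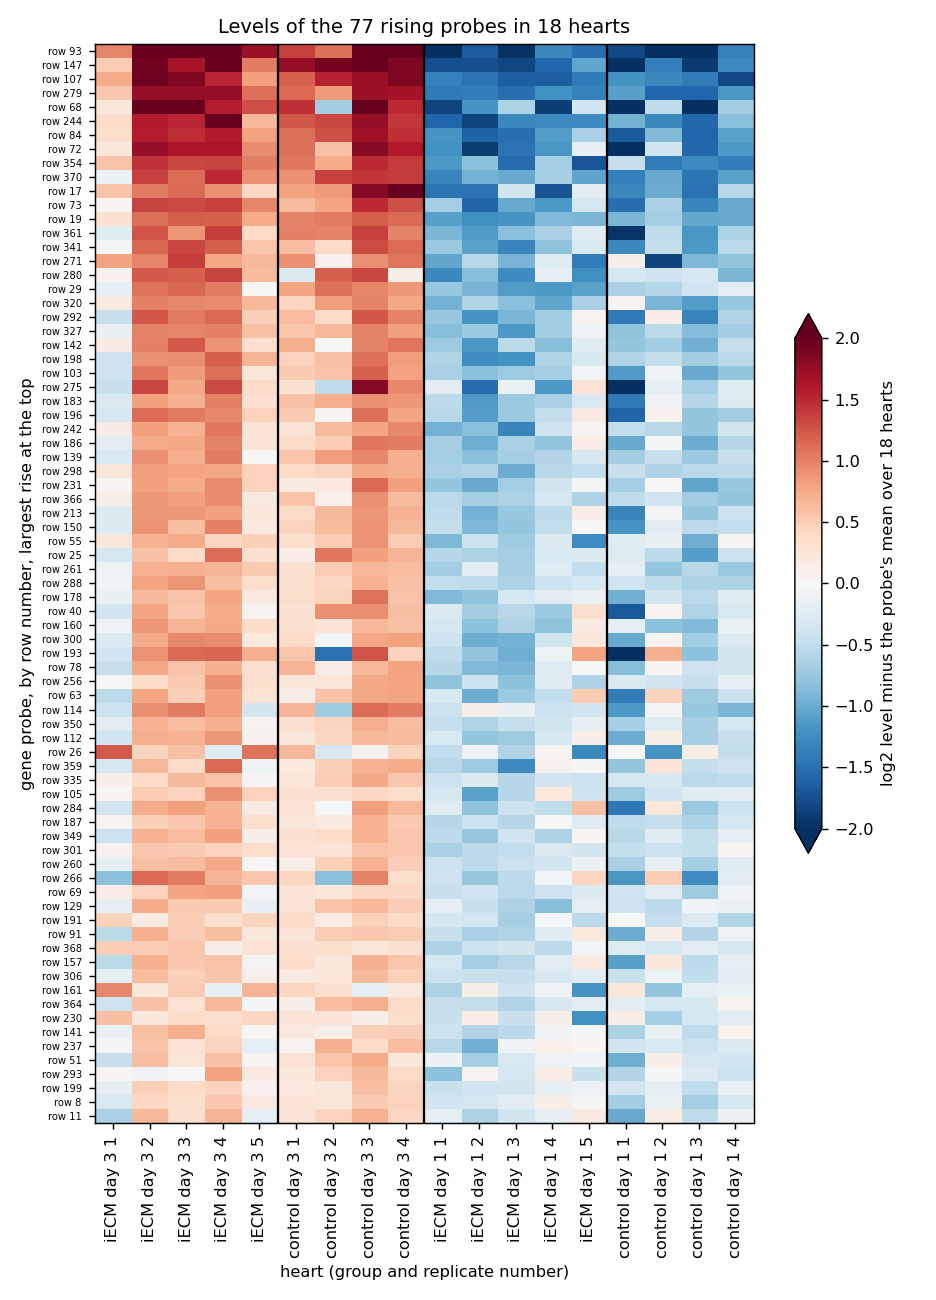
Level of each of the 77 rising probes (rows of the map, largest difference at the top) in each of the 18 hearts (columns, by group and replicate number), as log2 level minus the probe's mean over the hearts. The colour scale is cut at -2 and 2, and the first iECM heart of day 3 is paler than the other day 3 hearts in most rows.

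At day 1 the hearts also differed from each other. The fifth iECM heart of day 1 was the highest day 1 heart in 35 of the 77 rows, and the first control heart of day 1 was the lowest in 28. At day 3 the third control heart was the highest in 26 rows and the fourth iECM heart in 23. Counts over all 306 rows are not given, so nothing is read from these. In mean log2 level over the other 229 rows, the fifth iECM heart of day 1 was also the highest of its day, at 9.53. The first control heart of day 1 stood at 9.27 there, near the lowest of its day at 9.24. The third control heart of day 3 stood at 9.35 and the fourth iECM heart at 9.38, below the highest of their day at 9.39. The mean log2 level over the 77 rows was 8.84 ± 0.41 in iECM hearts of day 3 (SD, n = 5) and 8.91 ± 0.24 in control hearts of day 3 (SD, n = 4). It was 7.61 ± 0.20 in iECM hearts of day 1 (SD, n = 5) and 7.59 ± 0.22 in control hearts of day 1 (SD, n = 4).

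The spread between hearts of one group varied widely among the 77 rows. The pooled within-group SD of the log2 level had a median of 0.40 and ran from 0.16 to 0.96, and the median over the other 229 rows was 0.25. The difference between the days was more than 2 such SDs in 60 of the 77 rows and in 67 of all 306. The selection used the same difference, so nothing is read from this count. Rows with a larger difference tended to have a larger SD (Pearson 0.31, Spearman 0.42, over 77 probes of the same hearts). The SD over the hearts of a day was larger at day 3 than at day 1 in 48 of the 77 rows, 62.3%, and in 52.8% of the other rows. Without the first iECM heart of day 3 the median SD of the 77 rows was 0.34. The comparison of the SD between the days is not given without this heart.

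Row 68, with an SD of 0.96, and row 193, with 0.94, had the largest spread. Row 193 stood at 705, 1717, 2025, 2068 and 1532 CPM in iECM hearts of day 3 and 1359.9, 326, 2205 and 1268 in control hearts of day 3. It stood at 649, 532, 466, 862 and 1596 CPM in iECM hearts of day 1 and 189, 1502, 522 and 714 in control hearts of day 1. Its mean difference of 0.96 is close to its SD, and single hearts of each day lie well inside the range of the other. Row 368 had the smallest spread, with an SD of 0.16. It stood at 266, 268, 279, 205 and 231 CPM in iECM hearts of day 3 and 238, 241, 221 and 235 in control hearts of day 3. It stood at 122, 139.8, 146, 131 and 181 CPM in iECM hearts of day 1 and 157, 148, 162 and 149 in control hearts of day 1. The days did not overlap, although its difference of 0.71 was smaller than that of row 193. Row 335 was similar, with an SD of 0.19 and a difference of 0.84, and ranged from 1333 to 2226 CPM at day 3 and from 889 to 1083 at day 1.

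The difference between the days was also taken with each agent alone. Over the 77 rows its median was 1.01 in iECM hearts (0.40 to 3.58) and 1.10 in control hearts (0.41 to 3.67), beside medians over all 306 rows of 0.08 in iECM hearts and 0.18 in control hearts. Without the first iECM heart of day 3 the median in iECM hearts was 1.15, above the 1.10 of control hearts. All 77 rows were higher at day 3 with each agent, and 70 of them in iECM hearts and 75 in control hearts reached the 1.5-fold limit. The selection used the hearts of both agents together, so it largely set these counts, and nothing is read from them. With all hearts included, the difference was larger in iECM hearts in 28 rows and larger in control hearts in 49. Among the other 229 rows the difference was higher in iECM hearts in 93. Neither split is given without the first iECM heart of day 3. In 70 of the 77 rows the 2 agents were within 0.5 of each other on the log2 scale. The count over the other rows is not given, so nothing is read from this one. The differences correlated across the 77 rows (Pearson 0.930, Spearman 0.826), but the rows were chosen on hearts of both agents together, so this is no independent measure of their likeness.

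Applying the same limit to 1 agent at a time gave 70 rows from iECM hearts and 90 from control hearts, with 68 in both. These 68 are 97.1% of the iECM list and 75.6% of the control list. The lists and the gaps that follow include the first iECM heart of day 3. The largest gap between the agents on the control side was in row 361. It differed between the days by 1.49 ± 0.33 in iECM hearts and by 2.15 ± 0.34 in control hearts (SE). In row 361 the first iECM heart of day 3 stood at 526 CPM, and the other iECM hearts of day 3 at 818 to 1619. The largest gap on the iECM side was in row 280, whose day 1 level is background with both agents, so the size of its differences is not read. Next on that side was row 26, singled out after its values were seen, with 1.10 ± 0.35 in iECM hearts and 0.60 ± 0.36 in control hearts (SE). Row 147 differed by 3.04 ± 0.33 in iECM hearts and by 3.67 ± 0.28 in control hearts (SE), while row 93 was nearly equal, at 3.58 ± 0.29 in iECM hearts and 3.57 ± 0.33 in control hearts (SE).

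**Figure D4:**
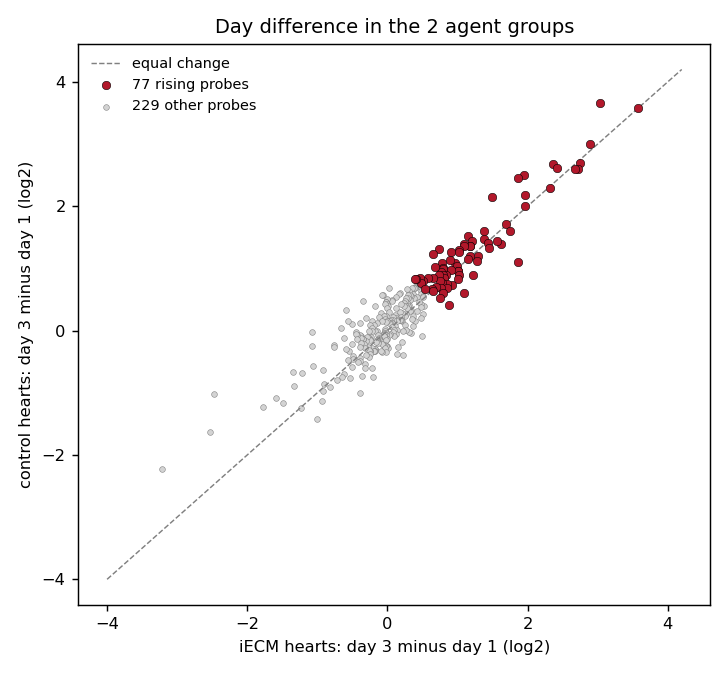
Difference between day 3 and day 1 (log2) in iECM hearts (horizontal axis) and control hearts (vertical axis) for the 77 rising probes (red) and the other 229 probes (grey), with the line of equal difference. The 77 probes lie along the line, with 28 of them on its iECM side and 49 on its control side, all hearts included.

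The agents themselves were compared with edgeR's quasi-likelihood test over 371 probes, a contrast that did not choose the rows. At day 3, none of the 77 rows was called at an adjusted p of 0.05 (Benjamini-Hochberg over all probes tested), and 0% of the probes were. At an unadjusted p of 0.05, 1 of the 77 rows and 11 of the 371 probes passed. The log2 fold change of iECM over control at day 3 had a median of -0.05 over the 77 rows, with 27 above 0 and 50 below, beside a median of -0.04 over all probes tested. At day 1, 0% of the probes were called and the median was -0.00 over the 77 rows, with 38 above 0 and 39 below, beside -0.01 over all probes tested. There 2 of the 77 rows and 3 of all probes had an unadjusted p below 0.05. Over both days 0% were called, the median was -0.04 beside -0.02 over all probes tested, and 1 of the 77 rows and 5 of all probes passed unadjusted. DESeq2 and limma called none of the 77 rows in these 3 comparisons, and 0 of all the rows they tested. The limma test was run on the 306 rows that reached the mean count, not on the 371 probes. Unadjusted, DESeq2 passed 0 of the 77 rows at day 3, 2 at day 1 and 1 over both days. The same counts by limma were 0, 1 and 1. Unadjusted counts over all rows are not given for these tools, so nothing is read from theirs.

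The absence of calls does not show that the agents act alike, and the intervals give the size that remains possible. The 95% interval of the fold change lay within 2-fold in either direction for 71 of the 77 rows at day 3, 71 at day 1 and 76 over both days, and for 282, 290 and 301 of all 306 rows in the same comparisons. Row 17 had the smallest p at day 3. Its day 3 level was 104, 144, 153, 131 and 92.6 CPM in iECM hearts and 122, 126, 248 and 288 in control hearts, with 2 control hearts above all the iECM hearts. The log2 fold change was -0.64 ± 0.29 (SE), with an edgeR p of 0.0400 and an adjusted p of 0.901. Row 147 followed at day 3 with -0.39 ± 0.23 (SE).

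Row 29 had the smallest p at day 1 and over both days. Its day 1 level was 1741, 1541, 1347, 1331 and 1399 CPM in iECM hearts and 1869.9, 1984, 2216 and 2552 in control hearts, so each iECM heart of day 1 lay below each control heart. Its log2 fold change was -0.58 ± 0.21 (SE) at day 1, with an edgeR p of 0.0136 and an adjusted p of 0.998. At day 3 row 29 stood at 2627, 6251, 6516, 5979 and 2932 CPM in iECM hearts and 5065, 6275, 5801 and 5369 in control hearts, and the groups overlapped. Row 55 was at 23.0, 32.0, 26.3, 35.6 and 17.8 CPM in iECM hearts of day 1 and 36.7, 39.2, 21.7 and 45.4 in control hearts of day 1, with a log2 fold change of -0.45 ± 0.21 (SE). For row 364 the fold change over both days was -0.23 ± 0.11 (SE). None of these differences passed the adjusted threshold.

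Whether the difference between the days depended on the agent was tested with the interaction term of the same edgeR model. Of the 371 probes 0% were called, and of the 77 rows 0 had an unadjusted p below 0.05, against 10 of all probes. DESeq2 and limma called 0 of the 77 rows and 0 of all the rows they tested. Of the 77 rows 0 were below 0.05 unadjusted by either tool, and their counts over all rows are not given. The interaction ran from -0.72 in row 17 to 0.73 in row 280, at background at day 1, on the log2 scale, with a median of -0.01 beside -0.02 over all probes tested. The 95% interval lay within 2-fold for 60 rows and reached beyond it for 17, so for those 17 rows an unequal response of the agents of more than 2-fold is not excluded. Over all 306 rows the interval lay within 2-fold for 240, a share close to that of the 77 rows. Row 8 had the smallest p, with an interaction of -0.35 ± 0.18 (SE) and an edgeR p of 0.0710. Row 17 had an interaction of -0.72 ± 0.45 (SE).

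Hearts of one group that were high in one of the 77 rows tended to be high in the others. After the group mean was taken from each level, the 2926 pairs of the 77 rows had a median correlation of 0.594 over the 18 hearts, against 0.172 for pairs of the other 229 rows. The correlation was above 0.8 in 615 pairs, 21.0%, and in 9.40% of the pairs of other rows. It was below 0 in 12.9% of the pairs of the 77 rows and in 41.9% of the pairs of other rows. Pairs of the 24 rows lower at day 3 had a median of 0.179. The first axis of variation within groups held 65.5% of the variance of the 77 rows and 50.2% of that of the other rows. All these correlations share the same hearts and the same count totals, and are given as a description.

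The shared variation was larger over the day 3 hearts. The median pair correlation was 0.809 over the day 3 hearts and 0.323 over the day 1 hearts for the 77 rows, against 0.233 over the day 3 hearts and 0.153 over the day 1 hearts for the other rows. It was 0.728 in iECM hearts and 0.455 in control hearts for the 77 rows, against 0.182 in iECM hearts and 0.157 in control hearts for the other rows. Without the first iECM heart of day 3 the value in iECM hearts was 0.559, against 0.153 for the other rows. Without the first iECM heart of day 3 the median over all remaining hearts was 0.464, against 0.156 in the other rows, and over the day 3 hearts it was 0.698, against 0.191. Scaling by TMM factors, which set most rows level between hearts, lowered it to 0.349, against 0.032 in the other rows. The gap between the 77 rows and the rest was thus present under each of these settings, while its level moved with the scaling.

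**Figure D5:**
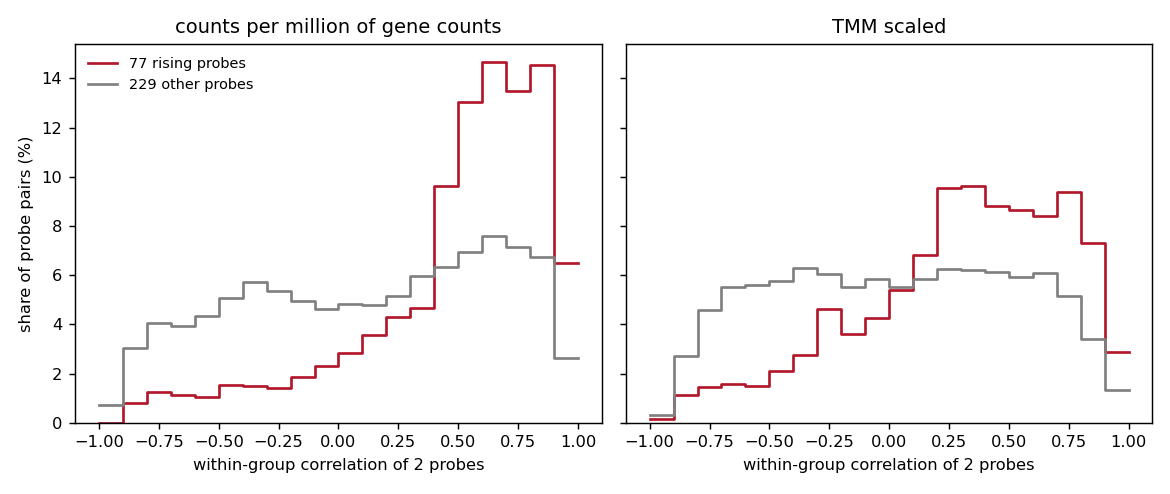
Share of probe pairs (percent) by within-group correlation over 18 hearts, for pairs of the 77 rising probes (red) and of the other 229 probes (grey), with levels as CPM (left) and after TMM scaling (right). The median of the 77 probes is 0.594 at left and 0.349 at right, against 0.172 at left and 0.032 at right for the others.

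The closest pairs were rows 72 and 196, with a within-group correlation of 0.987, rows 72 and 284, with 0.984, and rows 11 and 361, with 0.981. Set against the mean of the other members, a row had a median correlation of 0.801, and 65 of the 77 rows were above 0.5. The correlation was below 0 in 6 rows, namely 161, 26, 230, 191, 271 and 368, with the lowest at -0.764 in row 161. These 6 rows were singled out after their values were seen. Row 161 averaged 835 ± 239 CPM in iECM hearts of day 3 (SD, n = 5), 687 ± 121 in control hearts of day 3 (SD, n = 4), 458 ± 151 in iECM hearts of day 1 (SD, n = 5) and 525 ± 143 in control hearts of day 1 (SD, n = 4). Row 26 averaged 1889 ± 706 CPM in iECM hearts of day 3 (SD, n = 5), 1389.9 ± 393 in control hearts of day 3 (SD, n = 4), 871 ± 287 in iECM hearts of day 1 (SD, n = 5) and 939.9 ± 341 in control hearts of day 1 (SD, n = 4). Both rows were higher at day 3 like the other members, while within groups they were lower in hearts where the other members were higher.

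The mean level of the 77 rows moved with other measures of the hearts. Within groups it correlated at -0.911 with the share of counts held by the 5 most abundant rows (Spearman -0.792, and -0.852 without the 2 hearts farthest from the median of that share, 18 hearts in all). Both are parts of the same total and are tied to each other by it. It correlated at 0.872 with the mean level of the 205 rows in between (Spearman 0.756) and at 0.553 with that of the 24 rows lower at day 3 (Spearman 0.593). With the summed gene counts the correlation was 0.313 (Spearman 0.298), and with the positive-control sum it was -0.180 (Spearman -0.057). The part of these measures in the shared variation was not tested. The labels give no cartridge, date or other batch, so no value within batches could be given.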

How the data were processed

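RNA from 18 samples of infarcted rat left ventricle was hybridised to NanoString probes, with 50 to 100 ng of RNA per sample, per the labels' protocols. The authors deposited whole-number counts in 394 numbered rows. They were taken as raw counts, since their totals differ between samples. The export software is not stated in the labels or headers. After the rows from which members were chosen, 6 rows were read as positive controls and 8 as negative controls, from their values. The 6 rows after those controls were left out of the levels but entered the tests. The authors' deposited gene and pathway tables were not used. The members and lists were chosen with earlier results of these data known.

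Levels are log2 of CPM (each heart's gene counts scaled to 1e6) plus a pseudocount of 1. The day difference chose the members and was not tested. The agents were compared with edgeR 4.0.16 (R 4.3.3): filterByExpr with a minimum count of 10, TMM scaling, and the quasi-likelihood test on 4 group means with 14 residual degrees of freedom, adjusted by Benjamini-Hochberg over 371 probes. SEs come from the F statistic and 95% intervals from the t distribution. The test was also run on simulated counts, with each probe drawn on its own. Such counts lack the variation that probes share within groups, so nothing is read from them here. Alternatives were DESeq2 1.42.0, limma 3.58.1, other scalings, filters and backgrounds, and each heart left out. The number of hearts limits the precision.

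Named rows are the 6 members with the largest day difference, the 4 of highest mean, the 4 just inside and the 4 just outside the limit, the 2 of smallest p in each test, the 2 of largest and 2 of smallest SD, and the 3 closest pairs. Replicate numbers were given in accession order and do not pair samples.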

Additional observations from a re-analysis of the deposited data

Results flagged for a closer look

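Over 112 sets of 4 or 5 hearts of a group, for each named row and for the summed share and mean level of the members, the highest and lowest heart was compared with the rest, and 4 stood far from it, where chance alone would give about 1 in 20. In row 193, the lowest iECM heart of day 3 had a log2 level of 9.46, against a group median of 10.7. In row 344, just outside the limit, the lowest control heart of day 3 had 7.62, against a median of 7.81. In row 361, the highest control heart of day 3 had 10.6, against a median of 10.3. In row 168, just outside the limit, the highest iECM heart of day 1 had 6.17, against a median of 5.70.

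Outside the rows from which members were chosen, 2 of the 6 rows after the control rows had a day difference as large as the selection asked for. Row 389 was 2.39 higher at day 3 on the log2 scale, with 905 ± 309 CPM over the 9 hearts of day 3 and 164 ± 36.6 CPM over the 9 hearts of day 1 (SD). Row 392 was 0.61 higher, with 20959 ± 4825 CPM over the 9 hearts of day 3 and 13401 ± 1586 CPM over the 9 hearts of day 1 (SD).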

How the results depend on the processing

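The number of members was 77 and stayed within 1.5 times that in 29 of 31 alternatives. It was 40 with a limit of 1 on the log2 scale, and 264 with each heart scaled on its positive-control rows, with all 77 among them. TMM scaling gave 66 and quantile normalization 54. Positive-control scaling also moved the median of all rows to 1.11 and the members' median day difference to 1.97 in iECM hearts and 2.05 in control hearts. Without the 5 most abundant rows in the total, the members' share of counts was 15.8% at day 3 and 6.42% at day 1. The median pair correlation of 0.594 was 0.349 by TMM, 0.494 with the total taken without the 5 most abundant rows, and 0.864 by positive-control scaling, and the median SD of 0.40 was 0.65 there. The cause of these changes was not tested.

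Leaving out each heart in turn gave 72 to 85 members, a median day difference of 0.93 to 1.15 in iECM hearts and 1.02 to 1.20 in control hearts, and a share of 9.11% to 9.87% at day 3 and 3.69% to 3.89% at day 1. Rows without overlap between the days numbered 31 to 52, and the highest came without the first iECM heart of day 3. TMM scaling gave 39 such rows and the total without the 5 most abundant rows 41. Both settings were chosen after seeing the data, as were the leave-outs of this count. Except without the first iECM heart of day 3, the share over all 306 rows is not given for these settings. Nothing is read from these counts. The number of members called in the 4 agent tests was 0 in each of 24 alternatives, DESeq2 and limma included.

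The labels name no pairing of samples, and no paired analysis was done. With 4 or 5 hearts per group, the 95% interval of the interaction reached beyond 2-fold in 17 of the 77 rows and in 66 of all 306.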
